A study of Nicotiana benthamiana with 9 samples.

Results

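The response of Nicotiana benthamiana leaves to 1 h at 37 °C was read from 6 of the 9 RNA-seq libraries of the series: 3 heat libraries and the 3 mock libraries that served as control. They were chosen by their labels and by no measured value. This Australian species belongs to the tobacco genus and serves as a laboratory plant. Mock leaves came from plants left unwounded at 23 °C for 1 h. Heat leaves came from plants exposed to 37 °C for 1 h. The remaining 3 libraries, from leaves cut with scissors and held at 23 °C for 1 h, entered the statistical model and are quoted where a value needs a reference. Plants of every group had grown for 5 weeks in soil under long days. No genetic change is given for any group, and how many plants went into a library is not stated in the labels.

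Plant cells answer a sudden rise in temperature within minutes. Heat stress transcription factors are released from their repressing chaperones and bind heat shock elements in promoters, and the transcripts of small heat shock proteins, of larger ATP-dependent chaperones and of further heat stress factors accumulate from very low levels. Many abundant leaf transcripts, among them those for photosynthesis, are known to decline under heat in other plants. This is background only, because the deposited table does not pair its entries with genes and no annotation was used here, so no gene or pathway is named and the leaf label was not checked against marker genes.

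Each of the 56094 entries (rows) of the table is a whole assembly sequence, either a scaffold (39565) or a contig (16529), with the number of reads assigned anywhere on it. A long scaffold can pool the reads of many genes. A sequence that changed therefore holds at least some transcript that changed, and genes on the same scaffold that moved in opposite directions can cancel. Mock libraries held 15587154, 14821545 and 16326700 counts and heat libraries held 13846165, 14087184 and 17480792. Levels are given in CPM, where 1 CPM is 1 count in 1000000 of the library size after TMM scaling (trimmed mean of M-values, which aligns the bulk of sequences between libraries). Counts are shares of a library, so a level can fall because other transcripts rose. In whole leaves, fewer cells of a type and less RNA per cell cannot be told apart.

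A large part of the tested sequences differed in level after 1 h of heat. This is a share of whole sequences, which can pool many genes, and not a share of transcripts. Of the 9645 sequences with enough counts to be tested, 4840 (50.2%) differed between heat and mock at an adjusted p under 0.05, of which 2642 (27.4%) were higher and 2198 (22.8%) were lower after heat (edgeR quasi-likelihood test, Benjamini-Hochberg adjustment). Of the tested sequences, 2523 (26.2%) were called higher with no overlap between the groups, and 2099 (21.8%) were called lower with none. Counted without the test, 5510 sequences (57.1%) did not overlap between the groups in either direction. Most called changes were under 2-fold. Of all tested sequences, 1239 (12.8%) were called with a rise and 828 (8.58%) with a fall of at least 2-fold. Calls of at least 2-fold made up 31.2% of tested sequences under 2000 nt and 15.3% of those of at least 200000 nt. Longer sequences can pool more genes, and the parts of pooling and of depth in this were not tested. By fitted fold change, at least 4-fold changes numbered 544 higher and 246 lower, at least 8-fold changes 321 and 74, at least 16-fold changes 225 and 29, and at least 64-fold changes 143 and 13. Of the 143 rises of at least 64-fold, 119 had no mock count at all and 18 had 1 to 9 in the 3 mock libraries together. Likewise 12 of the 13 such falls had no heat count. The fitted fold of a sequence without counts in a group depends on the prior count, and such sequences passed the filter on low counts through the other libraries. Among sequences with at least 10 counts in the lower group, the numbers were 355 higher and 166 lower at 4-fold, 136 and 22 at 8-fold, 50 and 2 at 16-fold, and 6 and 0 at 64-fold. The balance of higher and lower calls depended on the scaling. Upper-quartile factors shifted the median log2 fold change of all tested sequences to -0.17 and gave 2033 higher and 3191 lower, and library totals alone shifted it to -0.12 with 2126 and 2818. The median was 0.01 with TMM. The excess of rises among called changes of 2-fold or more, 1239 against 828 with TMM, was not kept either. Falls outnumbered rises there, 1131 against 1013, once upper-quartile factors replaced TMM. Rises were only slightly ahead, 1064 against 1022, when library totals alone were used.

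**Figure D1:**
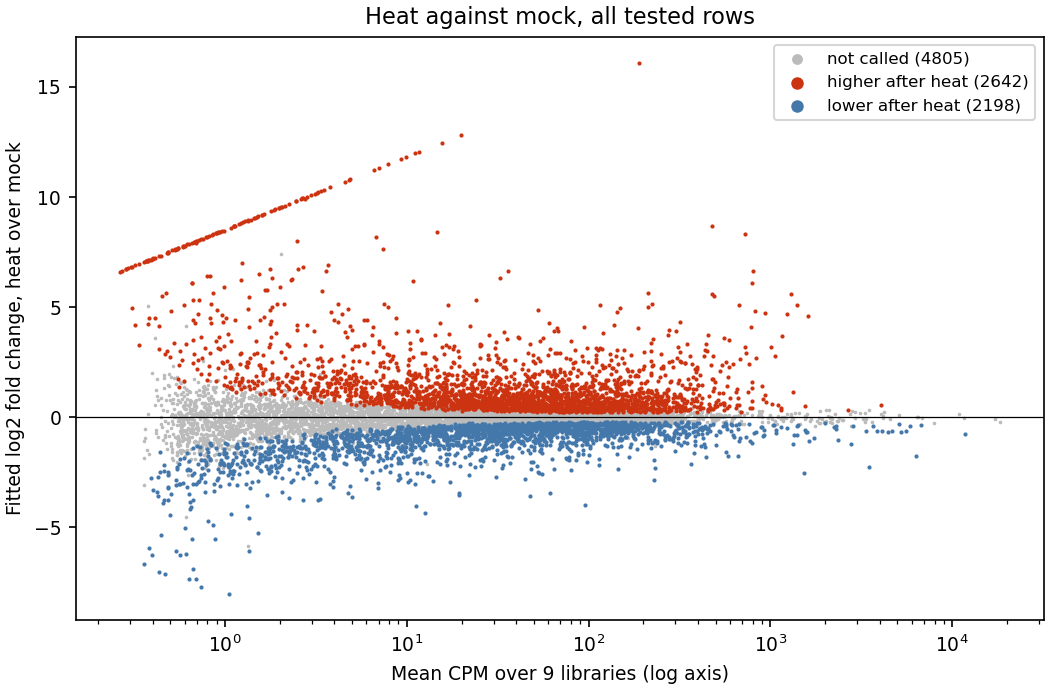
Fitted log2 fold change of heat over mock against the mean level over the 9 libraries (CPM, log axis) for the 9645 tested sequences, with 2642 called higher in red, 2198 called lower in blue and 4805 not called in grey. The straight upper band holds sequences with no mock count, whose fitted fold depends on the prior count; above 1000 CPM the called sequences lie mostly below 0.

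The size of the shift in each library was measured as the percent of its count that lay on other sequences than in mock (the summed absolute difference in percent of count from the mean of the other mock libraries, divided by 2). The heat libraries had 20.5%, 18.2% and 20.8% of their count displaced. Among themselves the mock libraries had 6.05%, 7.81% and 3.85%. The wounded libraries had 8.85%, 8.11% and 8.23%. Every heat library was thus farther from mock than any mock or wounded library. Means were 19.8% ± 1.4 after heat, 5.91% ± 1.98 in mock and 8.4% ± 0.397 after wounding (SD, n = 3). The difference of heat from each of the other groups had a two-sided exact permutation p of 0.1, the smallest that 3 libraries against 3 allow, and 0.125 after adjustment over the 5 library measures compared. Between single libraries, 18.7% to 22.4% of the count was displaced for the 9 heat and mock pairs, against 5.09% to 8.25% within heat and 4.44% to 8.98% within mock.

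The most abundant sequences took less of the library after heat. In mock the 100 most abundant sequences of each library held 39.3%, 33.7% and 37.1% of the count, and after heat they held 29.7%, 33.4% and 30.7%. The groups did not overlap, but mock replicate 2 and heat replicate 2 were nearly level. The 10 most abundant held 11.2% ± 1.05 in mock and 8.88% ± 0.705 after heat (SD, n = 3). Both differences had an exact permutation p of 0.1 (0.125 adjusted). The number of sequences needed to hold 50% of the count was 238, 359 and 280 in mock and 393, 303 and 366 after heat, and here the groups overlapped (exact permutation p = 0.2). The 100 most abundant sequences were also taken from the libraries of wounded leaves, which were kept at 23 °C like mock. The share of these 100 was 36.5% ± 2.85 in mock and 28.3% ± 1.94 after heat (SD, n = 3). Of those 100, 32 fell after heat and 3 rose, none of the rises reaching 2-fold, beside 22.8% and 27.4% of all tested sequences. That list was chosen after values had been seen. The wounded libraries lay nearer to mock than the heat libraries did. Sequences abundant only after heat could not enter the list, so its lower share after heat is no independent result.

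**Figure D2:**
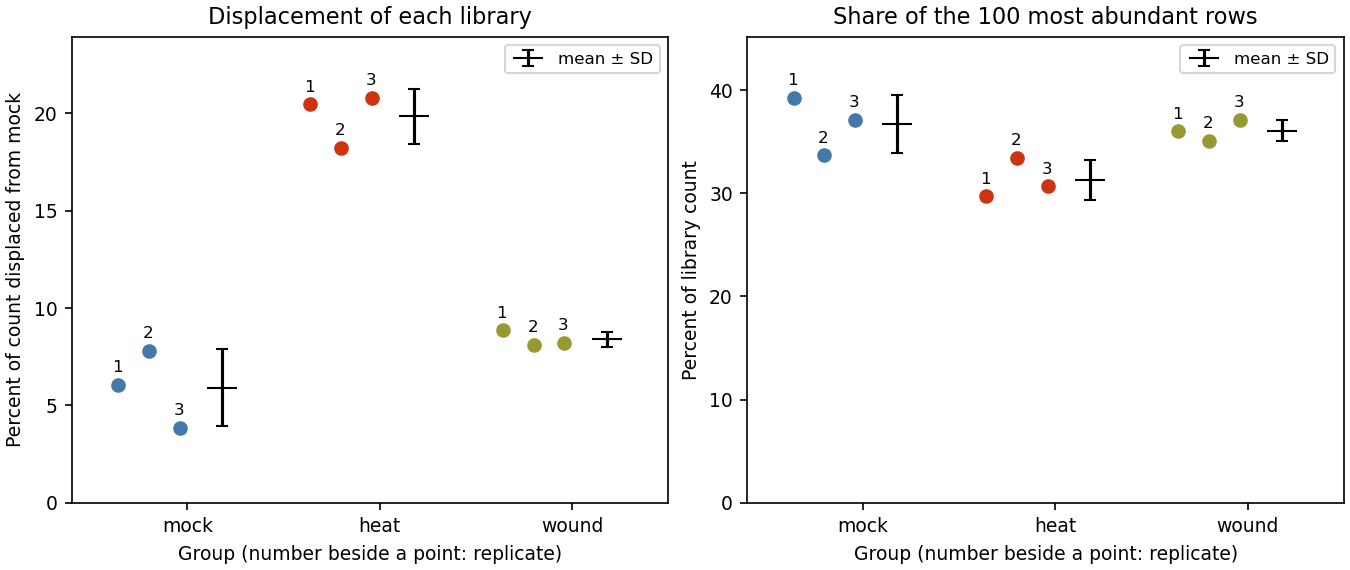
Left, the percent of each library's count that lay on other sequences than in mock; right, the percent of each library's count on its own 100 most abundant sequences, with replicate numbers above the points and the mean ± SD (n = 3) in black. Heat libraries sit between 18.2% and 20.8% on the left, above all other libraries, and between 29.7% and 33.4% on the right, just under mock replicate 2 at 33.7%.

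Losses were concentrated on fewer sequences than gains. Summed over the sequences called higher, heat added 211871 ± 13542 CPM (SD over the 3 heat libraries, each against the mock mean). Over those called lower, it removed 114633 ± 12231 CPM. Of the lost CPM, 5.01% came from 1 sequence, 25.2% from the 10 largest losses, 50.1% from 50 and 60.3% from 100. Of the gained CPM, 2.03% came from the largest gain, 13.9% from the 10 largest, 35.1% from 50 and 47.5% from 100. The gain thus needed 114 of 2642 sequences to reach 50%, and the loss needed 50 of 2198. To reach 90%, the numbers were 981 and 739. With every tested sequence summed whether called or not, the loss needed 77 and the gain 138.

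How gain compares with loss in total was set by the scaling. Upper-quartile factors gave 168919 CPM gained and 183307 lost, and library totals alone gave 179778 and 166936, so the excess of gain over loss under TMM turned round under upper-quartile factors. The greater concentration of the loss held under each scaling, with 75 against 84 sequences for 50% under upper-quartile factors and 69 against 91 under library totals. No test was made of this contrast.

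**Figure D3:**
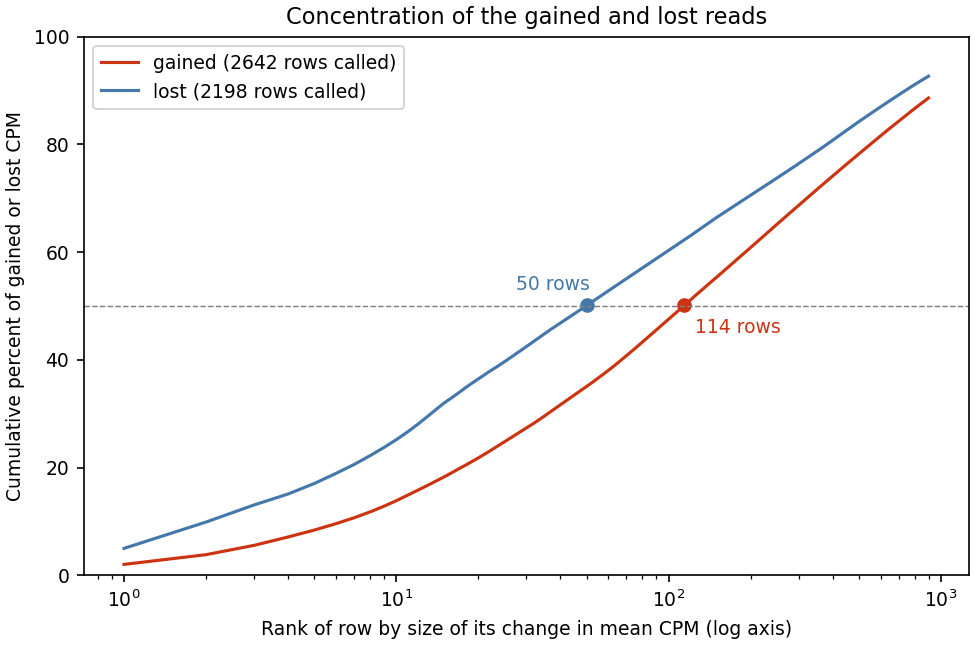
Cumulative percent of the CPM gained (red, 2642 sequences) and lost (blue, 2198 sequences) against the rank of the sequence by its change in mean CPM (log axis), shown to rank 900. The points mark 50%, reached at 50 sequences for the loss and 114 for the gain.

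The sequences behind the gain and the loss differed in median level and fold. Part of this follows from the measure, because a sequence cannot lose more than its mock level while a gain has no such limit. The 114 sequences that made up 50% of the gain had a median mock level of 162 CPM and a median log2 fold change of 2.47. The 50 that made up 50% of the loss had a median mock level of 1742 CPM and a median log2 fold change of -0.72. Of these 50 losses, 39 were on sequences above 1000 CPM in mock and 17 were falls of at least 2-fold, those on Niben101Scf02262 and Niben101Ctg16374 among them. Of the 50 largest gains, 49 were rises of at least 2-fold and 1 was on a sequence above 1000 CPM in mock. Sequences that rose at least 8-fold made up 30.6% of the gained CPM, whereas those that fell at least 8-fold made up 0.324% of the lost CPM. Falls of less than 2-fold supplied 27.2% (under 1.5-fold) and 38.9% (1.5-fold to 2-fold) of the loss.

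Calls were also counted by level, taken as the mean over all 9 libraries. The heat libraries enter that mean, so a rise can lift a sequence into a higher class. Niben101Scf04040, for example, had 184 CPM in mock and 1614 CPM over the 9 libraries. Among the 131 sequences averaging 1000 CPM or more over all 9 libraries, 38 fell and 15 rose, beside 22.8% and 27.4% of all tested sequences; the difference was not tested and the balance of calls depends on the scaling. They carried 44.7% of the lost and 12.8% of the gained CPM, and their summed level in mock was 379168 CPM. The 1871 sequences of 100 to 1000 CPM carried 67.2% of the gain and 36.4% of the loss, with 674 risen and 433 fallen. They summed to 393902 CPM in mock, so the loss of both classes lay near their share of the mock reads. The 4405 sequences of 10 to 100 CPM, the largest class, had 1335 rises and 1101 falls and carried 18.6% of the gain. Under 10 CPM, where 740 and 2498 sequences were tested below and above 1 CPM, there were 125 rises and 106 falls below 1 CPM and 493 rises and 520 falls above it. Every call below 1 CPM was a change of at least 2-fold, and no smaller change was called at that depth. The classes below and above 1 CPM carried 0.0923% and 1.32% of the gain. By length, scaffolds of at least 200000 nt carried 74.9% of the gain and 72.3% of the loss. Most reads lay on them before heat, with a summed mock level of 747180 CPM, against 162522 CPM at 20000 to 200000 nt. The 1370 tested contigs carried 1.46% of the gain and 6.19% of the loss. In mock, contigs summed to 41126 CPM and scaffolds to 916032 CPM. The contig Niben101Ctg16374 alone supplied 3.17% of the loss, and the other contigs 3.03%.

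The 12 largest gains were all on scaffolds, of 84977 to 1060080 nt. Together they went from 1471, 1321 and 1345 CPM in the mock libraries to 31672, 38714 and 34255 CPM in the heat libraries, and wounded libraries held 1433, 1544 and 1399 CPM. The sum was 25.3 times the mock sum and made up 15.8% of the gained CPM. Each of the 12 rose more than 8-fold, with log2 fold changes from 3.20 to 8.33 and an adjusted p of at most 2.04e-07 (edgeR), and for each of the 12 the lowest heat library stood far above the highest mock library.

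The largest gain was on Niben101Scf04040 (positions 1 to 1060080). It had 177, 205 and 171 CPM in mock and 3836, 5230.3 and 4401 CPM after heat, or 184 ± 18 and 4489 ± 701 CPM (SD, n = 3). By edgeR this was a log2 fold change of 4.61 ± 0.14 (SE), with an adjusted p of 1.02e-09. This scaffold alone supplied 2.03% of the gained CPM. Next came Niben101Scf10796 (positions 1 to 178960), with 149, 87.9 and 105 CPM in mock and 3885, 3900.4 and 4022 CPM after heat. Its heat libraries lay within a narrow range while its mock libraries spread more widely, and the mean was 34.6 times the mock mean. Niben101Scf10384 (positions 1 to 365057) went from 93.3, 63 and 78.5 CPM to 3287, 4308 and 3599 CPM, 47.7-fold. Niben101Scf04537 (positions 1 to 269025) went from 182, 86.5 and 134 CPM to 2938, 4599.8 and 2768 CPM, 25.6-fold. Its heat replicate 2 stood well above the other heat libraries and its mock replicate 2 was the lowest of mock, and its SE was the largest of the 12 (log2 fold change 4.68 ± 0.29, edgeR adjusted p = 2.04e-07).

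Niben101Scf04847 (positions 1 to 479878) started higher, at 241, 232 and 228 CPM in mock, and reached 2756, 2860.5 and 3277 CPM after heat, 12.7-fold. Niben101Scf06684 (positions 1 to 677300) went from 86.3, 113 and 93.3 CPM to 2414, 2966 and 2442 CPM, 26.7-fold. In mock, Niben101Scf04847 varied little (234 ± 6.78 CPM, SD, n = 3) and Niben101Scf06684 more (97.6 ± 13.9 CPM). After heat they had 2964 ± 276 and 2607 ± 311 CPM. A pair of shorter scaffolds combined a large gain with a low start. Niben101Scf10306 (positions 1 to 171310) had 23.7, 24.8 and 23.3 CPM in mock and 1935, 2646 and 2469 CPM after heat, a 98.1-fold rise (log2 fold change 6.62 ± 0.17, SE, edgeR adjusted p = 3.90e-10). Niben101Scf09973 (positions 1 to 84977) had 36, 28.2 and 37 CPM in mock and 2147, 2716 and 2095 CPM after heat, 68.8-fold. The wounded libraries stayed near mock on both, with means of 26.5 and 33.8 CPM.

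Among the rest of the 12, Niben101Scf09262 (positions 1 to 211922) rose from 88.2, 67.4 and 89.7 CPM to 2338, 2599 and 2012 CPM, 28.3-fold. Niben101Scf00449 (positions 1 to 744899) had the smallest fold of the 12, 9.21, from 259, 282 and 260.1 CPM to 2283, 2482 and 2621 CPM, and the smallest SE (0.10 on the log2 scale). Niben101Scf04091 (positions 1 to 177307) had the largest fold, 323, from 8.25, 5.38 and 6.48 CPM to 1741, 2616 and 2126 CPM (log2 fold change 8.33 ± 0.24, SE, edgeR adjusted p = 6.37e-10). It was low in mock but present in every mock library, with 326 counts in all. Niben101Scf07428 (positions 1 to 380428) rose from 127, 125 and 118 CPM to 2112, 1792 and 2425 CPM, 17.1-fold. On these 12 scaffolds the wounded mean was between 0.861 and 1.32 times the mock mean. By rank, the sequence at rank 20 gained 1372 CPM, at rank 50 665, at rank 100 407, at rank 200 205, at rank 500 77.6 and at rank 1000 33.6. Among the 100 largest gains, 90 were at least 2-fold and 37 at least 8-fold, and the groups did not overlap for any of them. Over all 2642 sequences called higher, 2523 did not overlap.

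**Figure D4:**
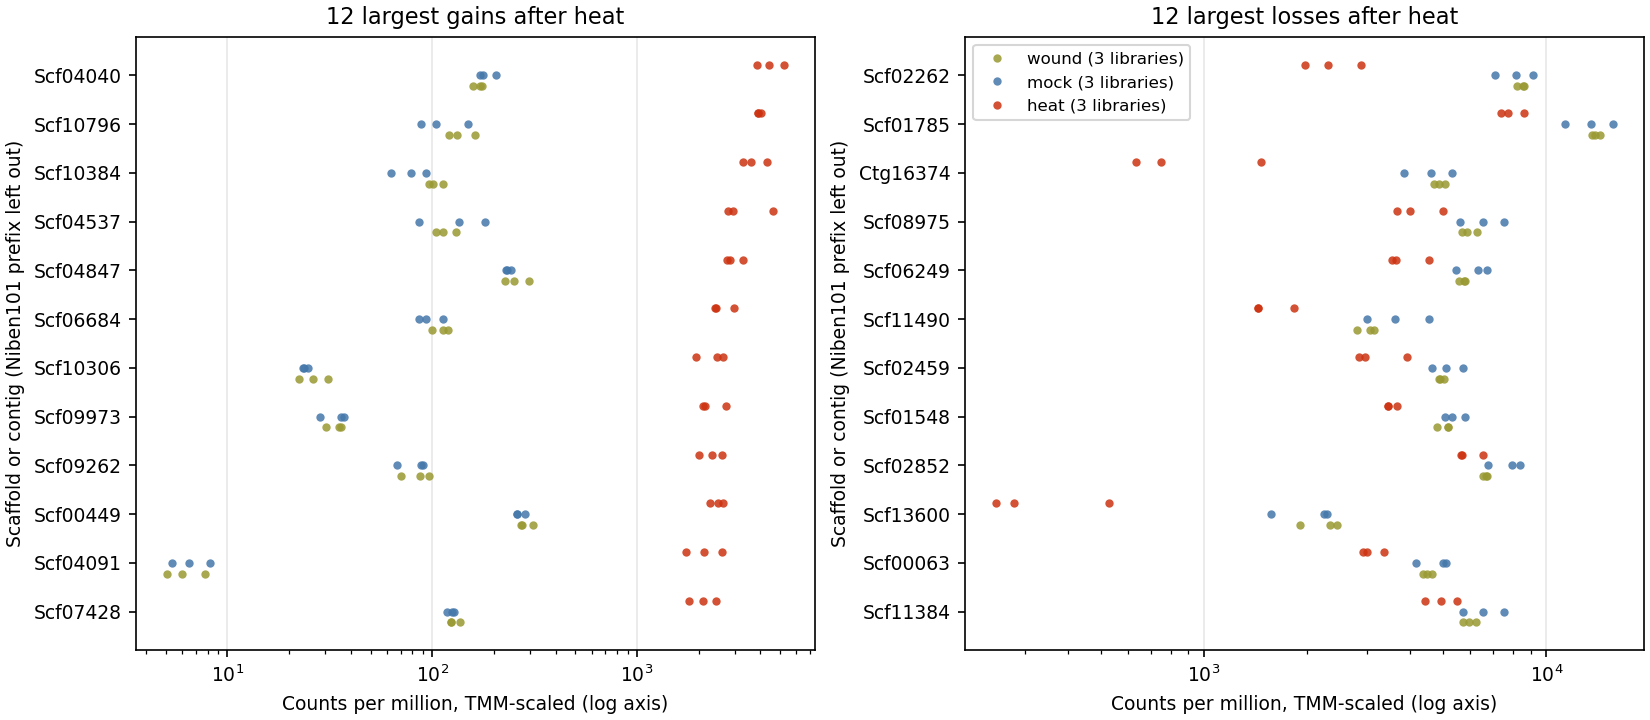
CPM in each library (log axis) for the 12 sequences with the largest gain (left) and the 12 with the largest loss (right) in mean CPM, heat in red, mock in blue and wounded in olive, 3 points a group. On the left every heat point lies far to the right of mock and wounded points; on the right the heat points lie to the left of mock, with small gaps for Scf02852, Scf11384 and Scf08975.

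The 12 largest losses comprised 11 scaffolds and 1 contig, and all had more than 1000 CPM in mock. Their sum went from 83533, 64196 and 74876 CPM in mock to 38466, 47830.1 and 39778 CPM after heat, with 71588, 69697 and 72286 CPM in the wounded libraries. They made up 28.1% of the lost CPM. In contrast with the gains, 4 of the 12 fell at least 2-fold. The log2 fold changes ran from -2.53 to -0.37, with edgeR adjusted p from 2.58e-06 to 0.0167.

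Niben101Scf02262 (positions 1 to 423175) lost most. It had 9124, 7098 and 8137 CPM in mock and 1972, 2875 and 2298 CPM after heat, a 3.41-fold fall (log2 fold change -1.77 ± 0.15, SE, edgeR adjusted p = 2.58e-06) that supplied 5.01% of the lost CPM. Niben101Scf01785 (positions 1 to 1163398) was among the most abundant sequences of the leaf, with 15643, 11346 and 13519.8 CPM in mock. After heat it held 7388, 8621 and 7701 CPM, a 1.71-fold fall (log2 fold change -0.77 ± 0.13, SE, edgeR adjusted p = 4.53e-04). With a much smaller fold it gave up nearly as many reads as the first, 4.89% of the loss. The contig Niben101Ctg16374 (positions 1 to 10737) fell 4.83-fold, from 5308, 3836 and 4593 CPM to 747, 1467 and 633 CPM. Its heat replicate 2 stood clearly above the other heat libraries (log2 fold change -2.27 ± 0.27, edgeR adjusted p = 3.40e-05).

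Niben101Scf13600 (positions 1 to 212268) had the largest fold among the 12, 5.79, from 2243, 1571 and 2288 CPM to 247, 529 and 279 CPM (log2 fold change -2.53 ± 0.27, SE, edgeR adjusted p = 1.50e-05). Here too heat replicate 2 was the highest heat library. Niben101Scf11490 (positions 1 to 88012) fell 2.36-fold, from 4532, 2987 and 3624 CPM to 1443, 1838 and 1439.6 CPM. The wounded mean of Niben101Scf11490 was 2996 CPM, between mock and heat. Those of Niben101Scf02262, Niben101Ctg16374 and Niben101Scf13600 were 8464, 4870.1 and 2229 CPM, all slightly above the mock means of 8119.6, 4579 and 2034 CPM.

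The remaining 7 fell by less than 2-fold from very high levels. Niben101Scf08975 (positions 1 to 373835) fell 1.55-fold, from 7518, 5592 and 6533 CPM to 3667, 4987 and 3984 CPM. Niben101Scf06249 (positions 1 to 685546) fell 1.58-fold, from 6697, 5447 and 6322 CPM to 3628, 4543 and 3549.7 CPM. In both, mock replicate 2 was the lowest mock library and heat replicate 2 the highest heat library. Niben101Scf02459 (positions 1 to 1152461) fell 1.59-fold, from 5693, 4638 and 5084 CPM to 2828, 3906 and 2954 CPM. Niben101Scf01548 (positions 1 to 119304) fell 1.53-fold, from 5770.3, 5051 and 5317 CPM to 3451, 3673 and 3450.2 CPM, with the smallest SE of the 12 (0.10 on the log2 scale). Niben101Scf00063 (positions 1 to 1504984) fell 1.53-fold, from 5105, 4148 and 4990.4 CPM to 2995, 3363 and 2921 CPM. The same ordering of replicates, with mock replicate 2 lowest in mock and heat replicate 2 highest after heat, was seen on all 3 of these scaffolds.

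The 2 weakest of the 12 were Niben101Scf02852 (positions 1 to 492975), at 8357, 6763 and 7947 CPM in mock and 5686, 6529.6 and 5635 CPM after heat, and Niben101Scf11384 (positions 1 to 148891), at 7543, 5718 and 6522 and 4414, 5499 and 4933 CPM. Their groups were separated by the narrow gap between mock replicate 2 and heat replicate 2. The log2 fold changes were -0.37 ± 0.11 (SE, edgeR adjusted p = 0.0165) and -0.41 ± 0.13 (adjusted p = 0.0167). Both calls were lost, with the same direction, when some single libraries were left out. Niben101Scf02852 had an adjusted p of 0.0557 without mock replicate 1, 0.058 without mock replicate 3, 0.0642 without heat replicate 1 and 0.0805 without heat replicate 3 (edgeR). Niben101Scf11384 had 0.0654 without mock replicate 1, 0.0792 without heat replicate 1 and 0.057 without heat replicate 3 (edgeR adjusted p). Losses fell off faster with rank than gains, from 5738 CPM at rank 1 to 873 at rank 20, 349 at rank 50, 169 at rank 100 and 14.3 at rank 1000. None of the 100 largest losses reached 8-fold, 35 reached 2-fold, and the groups did not overlap for 96 of them. Over all 2198 sequences called lower, 2099 did not overlap, a like share.

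By fold, the strongest rises among sequences with at least 10 mock counts in all and at least 10 CPM after heat were on scaffolds of 47013 to 177307 nt. The 8 together went from 115, 104 and 115 CPM to 9402, 12021 and 9957 CPM, while wounded libraries held 97.5, 102 and 96.3 CPM. Niben101Scf01475 (positions 1 to 132452) led. It held 3.22, 4.08 and 3.15 CPM in mock and 1332, 1599 and 1347 CPM after heat, or 409-fold (log2 fold change 8.67 ± 0.19, SE, edgeR adjusted p = 1.32e-10). Niben101Scf04091, Niben101Scf10306 and Niben101Scf09973, described above for their gain, were also among the 8. Niben101Scf23254 (positions 1 to 47013) rose from 1.1, 0.742 and 1.34 CPM to 118, 121 and 77.9 CPM, 99.7-fold on 52 mock counts. Niben101Scf09471 (positions 1 to 102055) rose from 0.387, 0.742 and 2.33 CPM to 63.5, 185 and 38.5 CPM. Its libraries disagreed in both groups, so that its 83-fold rise has an SE of 0.71 on a log2 fold change of 6.33 (edgeR adjusted p = 2.29e-05). That log2 fold change was 7.38 without mock replicate 3 and 5.43 without heat replicate 2. Niben101Scf07436 (positions 1 to 119952) rose from 13.2, 11.2 and 12.8 CPM to 651, 768 and 419.8 CPM, 49.4-fold. Niben101Scf24482 (positions 1 to 135573) was even in both groups, with 28.9, 28.9 and 28.9 CPM in mock and 1415, 1370.5 and 1384 CPM after heat, 48.1-fold (log2 fold change 5.59 ± 0.12, SE, edgeR adjusted p = 1.32e-10). Its wounded libraries, at 13.9, 18.5 and 15.7 CPM, all lay below mock. Down the ranking of 2162 called sequences of this class, the fold was 32.2 at rank 20, 15 at rank 50, 8.93 at rank 100, 5.26 at rank 200 and 1.81 at rank 1000.

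The strongest falls by fold, among sequences with at least 10 CPM in mock and at least 10 heat counts in all, were on sequences of low to moderate level and carried little of the loss. The 8 together went from 316, 278 and 252 CPM in mock to 26.1, 18.2 and 17.9 CPM after heat, 0.228% of the lost CPM. Niben101Scf22800 (positions 1 to 67033) fell 20.5-fold, from 27.3, 10.6 and 18 CPM to 0.802, 1.38 and 0.545 CPM. Niben101Scf19057 (positions 1 to 50961) fell from 7.28, 47.6 and 17.9 CPM to 1.46, 0.841 and 2.06 CPM. Here mock replicate 2 was far above the other mock libraries; the fold was 16.7 over means, and its log2 value, -4.03 ± 0.66 (SE, adjusted p = 4.11e-04 by edgeR), became -3.08 without that library. Niben101Scf14768 (positions 1 to 68096) had the same pattern, with 13.9, 59.9 and 22.1 CPM in mock and 4.67, 2.52 and 1.7 CPM after heat, and its log2 value, -3.45 ± 0.56 (SE, adjusted p = 3.76e-04 by edgeR), became -2.62 without mock replicate 2.

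The most abundant of these 8 was Niben101Scf17540 (positions 1 to 110499), which fell 15.9-fold from 185, 110.4 and 132 CPM to 11.4, 8.1 and 7.45 CPM (log2 fold change -3.99 ± 0.24, SE, edgeR adjusted p = 1.69e-07). Its wounded libraries, at 123, 164 and 113 CPM, lay in the mock range. Niben101Scf17179 (positions 1 to 153030) fell 11.6-fold, from 31.5, 21 and 22.9 CPM to 3.06, 1.3 and 2.12 CPM. Niben101Scf04543 (positions 1 to 80661) fell 8.35-fold, from 23.5, 5.62 and 18.8 CPM to 1.53, 1.61 and 2.6 CPM, with mock replicate 2 well below the other mock libraries. There were 2 contigs among the 8. Niben101Ctg14126 (positions 1 to 2411) fell from 12.3, 9.39 and 10.8 CPM to 2.19, 0.841 and 0.545 CPM, 9.09-fold, and its log2 fold change of -3.20 became -3.97 without heat replicate 1. Niben101Ctg15550 (positions 1 to 4392) fell from 14.3, 13.5 and 9.8 CPM to 1.02, 1.61 and 0.848 CPM, 10.8-fold. The wounded libraries held 128, 226 and 157 CPM of this contig, all above every mock library. Down the ranking of 1649 called sequences of this class the heat mean was 0.128 of the mock mean at rank 10, 0.233 at rank 50, 0.301 at rank 100 and 0.69 at rank 1000.

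**Figure D5:**
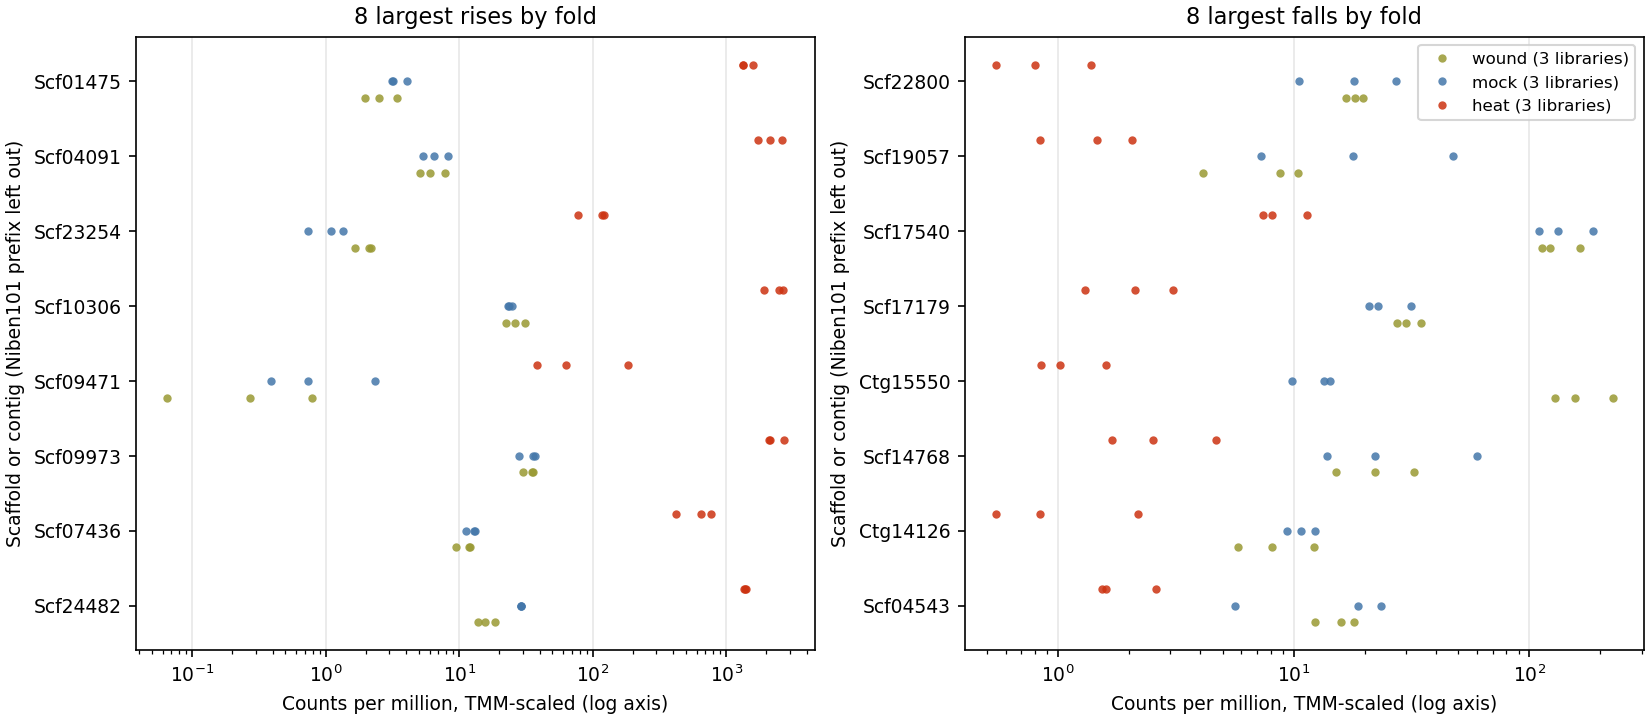
CPM in each library (log axis) for the 8 largest rises (left) and the 8 largest falls (right) by fitted fold change, heat in red, mock in blue and wounded in olive, 3 points a group. On the left the points of Scf09471 spread most widely; on the right mock points spread widely for Scf19057, Scf14768 and Scf04543, and the wounded points of Ctg15550 lie above its mock points.

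Sequences without any mock count added few reads. A total of 121 lacked counts in all mock libraries while holding at least 10 in each heat library, and 117 of these passed the filter on low counts, which they could do only through counts outside mock. Those that passed carried 0.596% of the gained CPM. In the opposite direction 9 sequences had no count after heat and at least 10 in every mock library. The latter number was 17 without heat replicate 1, 15 without heat replicate 2 and 14 without either heat replicate 3 or mock replicate 2. The contig Niben101Ctg10208 (positions 1 to 1056) had 518, 646 and 533 CPM in the heat libraries and accounted for 0.267% of the gain by itself. Its mean over the heat libraries was 3064 times a floor of 3 counts per mock library. The following 4 were far lower. Niben101Scf21159 (positions 1 to 926) had 74.8, 56.7 and 47.1 CPM, Niben101Ctg11944 (positions 1 to 1403) had 39.1, 19.8 and 78.5 CPM, Niben101Scf21974 (positions 1 to 781) had 28.2, 37.4 and 39.3 CPM and Niben101Scf20430 (positions 1 to 967) had 31.2, 42.4 and 25.7 CPM. The heat libraries of Niben101Ctg11944 were spread most widely, and it was the only one of these 4 with counts in the wounded libraries, at 1.04, 1.49 and 0.263 CPM. The heat means of the 4 were 323, 248, 189 and 179 times the mock floor, and single heat libraries lay on both sides of these means. The value for Niben101Ctg11944 fell to 159.5 times without heat replicate 3. Floors cover counting error only, because reads were not traced to single molecules.

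On the deposited TPM scale, which divides by the length of the whole sequence, 1 short contig held the largest share. It was singled out here after its values were seen. Niben101Ctg10718 (positions 1 to 1137) held 46.8%, 40.1% and 44% of the summed TPM in mock and 38%, 42.2% and 42.1% after heat. The groups overlapped, and on the CPM scale its log2 fold change of -0.09 ± 0.16 (SE) did not pass the test (edgeR adjusted p = 0.661). Of the next 4 by mock TPM, Niben101Ctg14049 (positions 1 to 2350) and Niben101Ctg13927 (positions 1 to 2270) fell, with log2 fold changes of -0.41 ± 0.13 and -0.50 ± 0.13 (edgeR adjusted p = 0.0174 and 0.00798). Niben101Ctg06879 and Niben101Ctg09398 did not pass the test (adjusted p = 0.189 and 0.991, with log2 fold changes of -0.20 and -0.0021).

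Replicates agreed closely. Among the 6407 sequences averaging 10 CPM or more, the median coefficient of variation was 9.16% over the mock libraries and 10.2% over the heat libraries. The median SE of a log2 fold change was 0.126 there and 0.163 over all tested sequences. When each of the 6 libraries was left out in turn, 2136 of the 2642 higher calls (80.8%) and 1536 of the 2198 lower calls (69.9%) were kept in all 6 fits. No sequence was called in the opposite direction in any of them.

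Within the heat group, replicate 2 stood somewhat apart. Among the 100 largest gains it was the highest heat library for 49, against 43 for replicate 3 and 8 for replicate 1. Replicate 2 was also the lowest heat library for 32 of these gains, against 51 for replicate 1 and 17 for replicate 3. Among the 100 largest losses it kept the most reads for 70, against 19 and 11 for replicates 1 and 3. Its 10 largest gains made up 16.3% of its own gain, compared with 12.9% and 12.5% in replicates 1 and 3, and it lost 100510.5 CPM on the sequences called lower, compared with 121834 and 121554. In mock, replicate 2 held the least of its count on the 100 most abundant sequences. Without heat replicate 2 the lost CPM was 128569, and without mock replicate 2 it was 128786, against 114633 with all libraries.

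A few sequences with large changes were uneven, and those that follow were singled out after their values were seen. Among the 100 largest gains, the widest spread over the heat libraries was on Niben101Scf11766 (positions 1 to 165323), with 621, 300.4 and 628 CPM after heat and 19.7, 44 and 29.8 CPM in mock. Niben101Scf03114 (positions 1 to 1096127) had 1171, 729.9 and 1452 CPM after heat over an even mock level of 157, 159 and 168 CPM. In both, heat replicate 2 was the low library. On Niben101Scf28395 (positions 1 to 78274) it was the high one, with 1264, 1976 and 1014 CPM. Among the 100 largest losses, Niben101Scf04209 (positions 1 to 311399) had 182, 129 and 339.8 CPM after heat and 482, 474 and 439 CPM in mock, so heat replicate 3 stayed nearest to mock. The unevenness lay in mock for Niben101Scf01008 (positions 1 to 467562), with 427, 1389.5 and 607 CPM in mock and 241, 221 and 223 CPM after heat. Mock replicate 2 was the high library there, as on Niben101Scf19057 and Niben101Scf14768. All of these kept their separation between the groups.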

How the data were processed

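Per the labels, RNA of mock, heat and wounded leaves, 3 biological replicates each, was extracted with Trizol and sequenced. The authors deposited 1 table with counts, RPKM, TPM and a signal column headed CPM for each library, all per whole assembly sequence. The aligner, the counter, the genome build and the handling of strand and of reads with several matches were not given in the sources used here. In the deposited table, RPKM and TPM divide by the length of the whole sequence, and the deposited signal column was not used.

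Counts were fitted with edgeR 4.0.16 in R 4.3.3 (TMM, filterByExpr, quasi-likelihood test, all 9 libraries in 3 groups, contrast heat minus mock). P-values were adjusted over the 9645 sequences tested, with a threshold of 0.05. SE is the log2 fold change over the square root of F. Measures per library were compared by exact permutation. Depth was 13846165 to 17480792 counts per library, and counting error limits sequences of few counts. Alternatives were other scalings, filters, thresholds, libraries, limma 3.58.1 and DESeq2 1.42.0.

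Sequences were named where the call held and the groups did not overlap: the 12 largest gains and 12 largest losses in mean CPM, the 8 largest rises and 8 largest falls by fold with at least 10 counts in the lower group and 10 CPM in the higher, and the 5 highest without mock counts. Members, lists and this rule were chosen with earlier results of these data known. Lists of genes and cell type markers could not be used, since sequences are not paired with genes. No pair of libraries of the same group agreed within sampling noise (chi-square test of counts), so each was counted once.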

Additional observations from a re-analysis of the deposited data

How the results depend on the processing

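Under the alternatives run, none of the named sequences changed direction. They had been named for a call and for no overlap between the groups. A reversal on leaving out 1 library was therefore hardly possible, and the lack of one is no independent support. The call was lost in 8 of the recomputed values, all for Niben101Scf02852 and Niben101Scf11384: 7 are given in the report, and with only heat and mock libraries in the fit the edgeR adjusted p of Niben101Scf02852 was 0.0524. Upper-quartile factors gave 168919 CPM gained, 183307 lost, and 16.1% and 20.9% of them in the 10 largest gains and losses. Library totals alone gave 179778 gained, 166936 lost and 21.4% in the 10 largest losses. With a mean of at least 10 CPM required, 683 sequences rose and 363 fell at least 2-fold, fewer being tested. At an adjusted p under 0.01 (edgeR) the loss was 96679 CPM, with 29.8% in the 10 largest. With every tested sequence summed, 232762 CPM were gained and 142103 lost, 77 sequences carried 50% of the loss and the 10 largest losses 21.1%. Limma on log2(TPM + 1) called 494 falls of at least 2-fold; the cause was not tested. With at least 5 counts in the other group, 187 sequences were silent in mock and 18 after heat. Leaving out single libraries gave 2382 to 2687 higher and 1846 to 2137 lower calls, 97549 to 128786 CPM lost, 24.8% to 27.7% of it in the 10 largest losses, 101 to 126 and 42 to 55 sequences for 50% of gain and loss, and 11 to 17 sequences silent after heat. The difference in the number of sequences holding 50% of a library ran from 34.5 to 95.

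Heat and mock replicates share numbers in the labels, but their deviations from the group means correlated at -0.294, -0.353 and -0.122 for the same-numbered pairs, so the numbers were not taken as pairing. With the replicate block in the fit, 2492 sequences were called higher and 1999 lower, and the best correlation was with the same number for 3 of the 9 libraries. By mean level over the 9 libraries, heat included, 31.2% of tested sequences were called under 1 CPM and 40.6% at 1 to 10 CPM. The share was 55.3% at 10 to 100 CPM, 59.2% at 100 to 1000 CPM and 40.5% at 1000 CPM and over. The part of depth in this was not tested.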
